A study of Mus musculus with 4 samples.

Results

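Notch receptors are switched on by cutting, and how well they respond to their ligands depends on sugars added to them beforehand. The genes described here are 9 that serve those steps: the sheddases Adam10 and Adam17, the gamma-secretase subunits Psen2, Psenen, Ncstn and Aph1a, and the Fringe glycosyltransferases Lfng, Mfng and Rfng. They were chosen by name, as every probe for a gene whose RefSeq accession on the array maps to one of these symbols. This gave 14 of 39429 probes and, with 1 probe a gene, 9 of the 17973 genes tested. Of the genes tested 12755 had a gene symbol, and the rest were counted by their name on the array.

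The samples were dendritic cells grown from bone marrow of female C57BL/6 mice, 8 weeks old, for 6 days with the cytokine GM-CSF (20 ng/mL) and then isolated as CD11c+ cells. Control cells (BMDC_RFF) were Rbpj fl/fl, with both copies of Rbpj flanked by loxP sites and no cre. Rbpj-deficient cells (BMDC_RFF11) were Rbpj fl/fl x CD11c-cre, the same alleles with a cre recombinase driven by the promoter of CD11c (Itgax), so deletion can occur only in cells in which that promoter is or was active. No array carries the cre with an intact Rbpj, so the effects of the cre and of the lost Rbpj cannot be told apart. Each genotype had 2 one-colour Agilent arrays, the RNA of a genotype was a pool of 4 mice. The labels do not say whether its 2 arrays had separate pools, and the p-values therefore reflect array-to-array spread that may be technical.

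A ligand pulling on a Notch receptor exposes a site next to the membrane, where ADAM10, or in some settings ADAM17, removes the outer part. Gamma-secretase, a membrane complex of a presenilin, nicastrin, an APH-1 protein and PEN-2, then cuts the remaining stub within the membrane and frees the intracellular part, which binds the DNA-binding protein RBPJ in the nucleus. The Fringe enzymes act earlier, in the Golgi, where they add N-acetylglucosamine to O-linked fucose on the receptor and thereby shift its response between Delta-like and Jagged ligands. In dendritic cells Notch2 signalling through RBPJ is known for its part in forming some conventional subsets in the spleen and gut.

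All 4 arrays lay on 1 slide and were scanned at 1 time. Of 43020 spots for genes, 55.2% to 58.4% were well above background. A level is the log2 processed signal minus that of the array's 75th percentile, so a probe at the percentile has level 0, and a change is the Rbpj-deficient mean minus the control mean. Genotypes were compared with limma, with Benjamini-Hochberg adjustment over all genes tested and a threshold of 0.05. An exact permutation test of 2 arrays against 2 cannot give a two-sided p below 0.333, so the test of each gene rests on the spread that limma shares over all genes. Rbpj, the deleted gene, read 2.69 and 2.61 in control and 1.37 and 1.44 in Rbpj-deficient cells, which is -1.25 on the log2 scale (limma SE 0.06, adjusted p = 0.0278). Where its probes lie relative to the loxP sites is not known here, and the call was lost without any 1 array, with limma adjusted p from 0.108 to 0.144. The Rbpj call was also lost with the replicate number as a block (limma adjusted p = 0.101) and without a filter on dim probes (0.26). The 9 dendritic cell markers on the array, among them Itgax, were well above background on all 4 arrays. Markers of other cells moved as well. Of 26 tested in 5 lists, 5 passed in limma, 4 higher and 1 lower, while with any 1 array left out 0 to 1 of all genes passed. Beside the 5 marker calls, over all 4 arrays 1.04% of all genes tested passed as higher and 0.84% as lower. These marker genes are named here because of their values. The summed unlogged level of 8 neutrophil genes was 21.6 and 24.8 in control and 44.8 and 36.0 in Rbpj-deficient cells. Of the 7 tested 6 lay above 0, and Mpo (change 0.74, limma adjusted p = 0.0378) and Ngp (0.54, 0.0445) passed, with Retnlg not well above background on any array. The sum of 8 macrophage genes was 300.1 and 316 in control and 304 and 298 in Rbpj-deficient cells, but its members differed: 6 of 8 lay below 0, Fcgr1 fell by 0.61 (limma adjusted p = 0.0424), and Adgre1 read higher on both arrays at 0.34 without passing (0.0766). The sum of 6 mast cell and basophil genes was 1.31 and 1.45 in control and 2.14 and 1.78 in Rbpj-deficient cells, with all 4 tested above 0 and Hdc passing (0.48, limma adjusted p = 0.0477), and Fcer1a and Ms4a2 not well above background on any array. The sum of 8 lymphoid genes was 0.812 to 1.04 in control and 0.985 to 1.104 in Rbpj-deficient cells. Of the 4 tested 3 lay higher without overlap, where 26.8% of all genes tested did. Klrb1c lay at 1.14 (limma adjusted p = 0.0379) and Cd3g at 1.40, which did not pass (0.104). Both were dim, at processed signals of 55.5 to 139 and 68.1 to 281 units before scaling. Cd3e, at 923 to 1130 units, overlapped with a change of -0.13. Ms4a1 and Ncr1 were among those not well above background on any array. The sum of 6 stromal and endothelial genes was at most 0.442 on any array, none of 3 tested passed (0 at an unadjusted p under 0.05), and Col3a1 and Cdh5 were not well above background on any. The part of these cells in the members' levels was not tested, and in bulk RNA fewer cells of a type and less RNA per cell cannot be told apart.

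The Notch-cleaving and Notch-glycosylating genes were all measured in both genotypes, and none of them passed the test. All 14 probes were well above background on all 4 arrays. Of the 9 genes, 0 passed in limma after adjustment over all genes, where 1.88% of genes tested passed, and of the 14 probes 0 passed in the fit over all probes, where 1.73% passed. Of the 9 genes 3 had an unadjusted p under 0.05, where 24.1% of genes did. Changes ran from -0.27 for Psen2 to 0.19 for Mfng, with a median of -0.13 beside -0.01 over all genes tested, and of -0.04 over all 14 probes. The 95% intervals of the 9 genes, not adjusted for their number, lay between -0.44 and 0.52 on the log2 scale, so none of them reached a 2-fold difference in either direction. The genotypes did not overlap for 7 of the 9, 5 lower and 2 higher in Rbpj-deficient cells, where 59.1% of all genes tested did not overlap, 32.3% lower and 26.8% higher. Of the 14 probes 9 did not overlap, beside 58.5% of all probes.

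**Figure D1:**
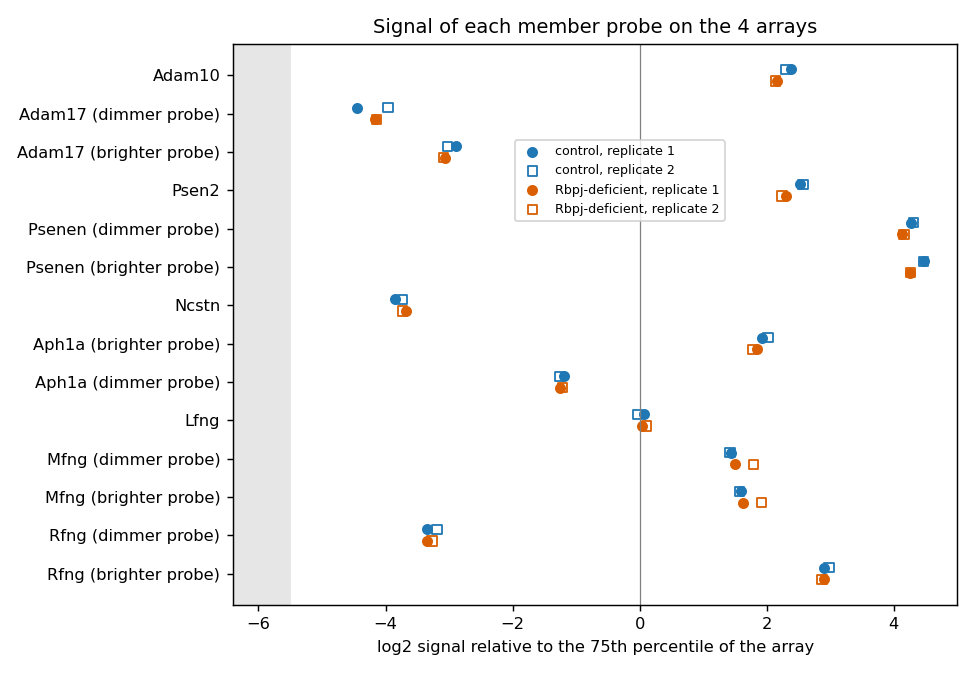
Level (log2 signal minus the array's 75th percentile) of each of the 14 member probes, with control arrays in blue and Rbpj-deficient arrays in orange, circles for replicate 1 and squares for replicate 2. The grey band ends at -5.50, the highest of the 4 arrays' lowest levels well above background, and every point lies to its right; probes bind with different strength, so levels compare arrays within a row and not genes between rows.

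Adam10, the protease that makes the ligand-induced first cut in Notch, was strongly detected and slightly dimmer without Rbpj. Its probe read 2.38 and 2.30 in control cells and 2.16 and 2.14 in Rbpj-deficient cells. Both Rbpj-deficient arrays therefore lay below both control arrays. The log2 change was -0.19 (SE 0.06, 95% interval -0.36 to -0.02), a signal 12.3% below control, and it did not pass (limma adjusted p = 0.176). Of all genes tested, 32.9% had a larger absolute change.

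Adam17, the TNF-alpha-converting enzyme, which releases TNF and the TNF receptors from the cell surface and can also cut Notch, was dim on both of its probes. The brighter probe read -2.89 and -3.02 in control and -3.07 and -3.09 in Rbpj-deficient cells, a change of -0.13 (SE 0.07, interval -0.31 to 0.06, limma adjusted p = 0.339). The dimmer probe read -4.45 and -3.96 in control and -4.16 and -4.14 in Rbpj-deficient cells. Here the 2 control arrays lay on either side of the Rbpj-deficient ones, and the change was 0.06 (interval -0.43 to 0.54). The probes of Adam17 thus differed in sign, the mean of both stood at -0.03, and neither differed beyond the spread between arrays. Processed signals before scaling were 170 to 185 units on the brighter probe and 62.8 to 91.2 on the dimmer one. The lowest level that counted as well above background was -5.95 to -5.50, depending on the array.

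Among the gamma-secretase subunits, Psen2 and Psenen read lowest relative to control, Aph1a lay lower on 1 of its 2 probes, and Ncstn did not lie lower. Psen2, presenilin-2, is one of the alternative catalytic subunits of the complex. It read 2.52 and 2.57 in control and 2.30 and 2.24 in Rbpj-deficient cells. The genotypes were apart by more than the gap between the arrays of either. The log2 change of -0.27 (SE 0.06, interval -0.44 to -0.11) left 82.7% of the control signal and did not pass (limma adjusted p = 0.101). Of all genes tested, 21.4% had a larger absolute change.

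Psenen encodes PEN-2, the small subunit needed for presenilin to be cleaved into its active form. Its brighter probe read 4.48 and 4.46 in control and 4.25 and 4.26 in Rbpj-deficient cells, a change of -0.22 (SE 0.05, interval -0.37 to -0.07, limma adjusted p = 0.117). The other probe read 4.27 and 4.31 in control and 4.12 and 4.16 in Rbpj-deficient cells, a change of -0.15 (interval -0.30 to 0.01). On both probes the Rbpj-deficient arrays lay below the control arrays. The calls of Psen2 and Psenen depended on how the variance was modelled. With a prior that followed the signal level and was robust to outlying genes both passed, at a limma adjusted p of 0.031 and 0.0448, where 8.61% of all genes passed, 4.75% as lower.

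Aph1a, a scaffold subunit of the complex, had 2 probes that carry the accessions of different transcripts. The probe for NM_146104 read 1.93 and 2.02 in control and 1.85 and 1.77 in Rbpj-deficient cells, a change of -0.17 (SE 0.07, interval -0.36 to 0.03, limma adjusted p = 0.25). The probe for NM_146134 read -1.19 and -1.26 in control and -1.26 and -1.22 in Rbpj-deficient cells. On that probe the genotypes overlapped, with a change of -0.02 (interval -0.18 to 0.15). Whether the 2 transcripts differ in their change was not tested.

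Ncstn, nicastrin, is the subunit that screens substrates for a short outer stub. It was dim, at processed signals of 94.9 to 113 units before scaling. Its levels were -3.85 and -3.73 in control and -3.67 and -3.73 in Rbpj-deficient cells. The upper control and the lower Rbpj-deficient array were equal at this precision and differed only in further decimals. The change of 0.10 (SE 0.07, interval -0.10 to 0.29, limma adjusted p = 0.46) was within the spread between arrays.

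Of the Fringe genes, Mfng lay highest relative to control, on the strength of 1 array, while Lfng and Rfng differed by less than the spread between arrays. Mfng, manic fringe, had 2 probes that moved together. Its brighter probe read 1.60 and 1.57 in control and 1.62 and 1.92 in Rbpj-deficient cells, a change of 0.19 (SE 0.12, interval -0.14 to 0.52, limma adjusted p = 0.402). The other probe read 1.43 and 1.42 in control and 1.50 and 1.79 in Rbpj-deficient cells, a change of 0.22 (interval -0.09 to 0.53). On both probes Rbpj-deficient replicate 2 was the high array and replicate 1 lay close to the controls. Without Rbpj-deficient replicate 2 the change of the brighter probe was 0.03, and without Rbpj-deficient replicate 1 it was 0.34 (limma adjusted p = 0.191).

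Rfng, radical fringe, read 2.90 and 2.98 in control and 2.90 and 2.87 in Rbpj-deficient cells on its brighter probe. Its dimmer probe read -3.35 and -3.19 in control and -3.34 and -3.27 in Rbpj-deficient cells. The changes were -0.05 (interval -0.22 to 0.11, limma adjusted p = 0.631) and -0.04 (interval -0.25 to 0.18). The genotypes overlapped on both probes.

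Lfng, lunatic fringe, is itself a Notch target in the segmenting embryo, where RBPJ binds its regulatory DNA. In these dendritic cells it read 0.06 and -0.03 in control and 0.03 and 0.11 in Rbpj-deficient cells, so the genotypes overlapped. The change was 0.06 (SE 0.07, interval -0.13 to 0.24, limma adjusted p = 0.651), which in folds spans 0.913 to 1.18. Of all genes tested, 73.8% had a larger absolute change.

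**Figure D2:**
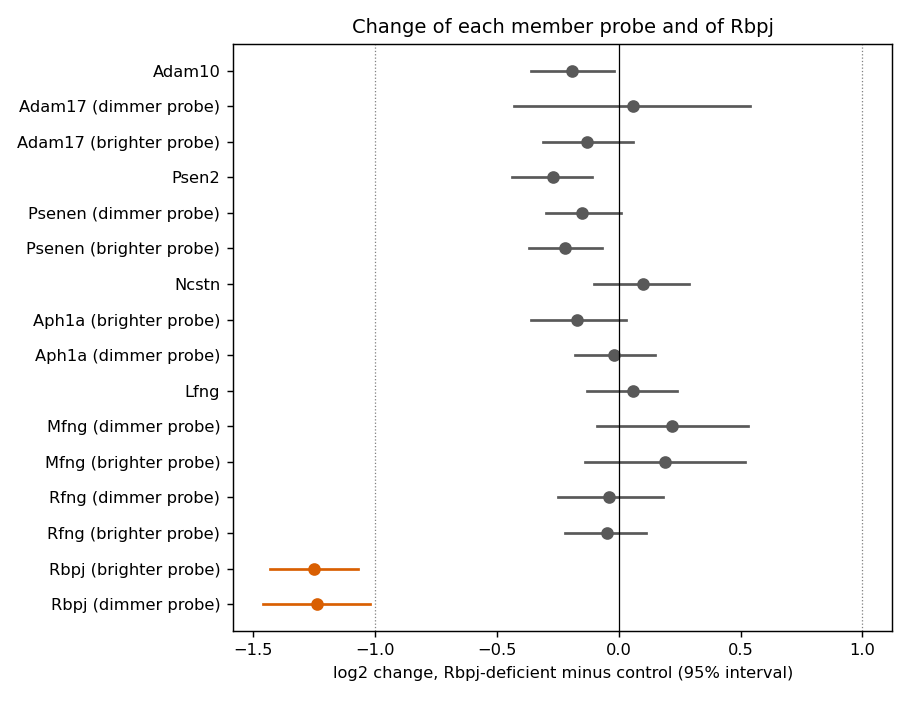
Log2 change (Rbpj-deficient minus control) of each member probe and of the 2 Rbpj probes in the fit over all probes, with 95% intervals from limma; orange marks an adjusted p under 0.05 and the dotted lines a 2-fold difference. Member probes lie between -0.27 and 0.22 with intervals inside the dotted lines, while both Rbpj probes lie beyond -1.

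Since RBPJ recognises a short DNA word, promoter sequence from RefSeq (GRCm38.p6) was searched for its letters next to these expression values. The windows ran from 250 bases before to 50 bases after an annotated start. Of the 9 members 8 had such a window, while Mfng had none and was not searched. This gave 10 windows, Psen2 and Psenen having 2 starts each. The core TGGGAA on either strand occurred in 4 of the 10 windows, beside 25.6% of all 32851 windows of that length. The longer GTGGGAA, which contains the core, occurred in 3, beside 6.38% of all windows. The full word CGTGGGAA, which contains both, occurred only in the window of Lfng among the members, beside 0.734% of all windows. In Lfng it begins 110 bases before the start and overlaps the word CACGTG, which 7.15% of all windows hold. The windows of Adam10, Adam17, Ncstn and Rfng, and those of the first starts of Psen2 and Psenen, held none of these RBPJ words. A match of letters is a description and not a shown binding site.

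The 250 bases before the Lfng start, chr5:140607091-140607340 on the plus strand, are shown because this member carries the full word, with the RBPJ words in capitals. TTCCCA is the core read on the other strand.
Lfng: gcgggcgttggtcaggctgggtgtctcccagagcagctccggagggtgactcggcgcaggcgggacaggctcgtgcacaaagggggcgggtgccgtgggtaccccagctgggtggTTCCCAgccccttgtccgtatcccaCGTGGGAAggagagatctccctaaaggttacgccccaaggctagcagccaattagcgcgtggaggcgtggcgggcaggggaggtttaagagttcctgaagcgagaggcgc

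The matches of 3 gamma-secretase genes are shown as stretches of 30 bases, 5′ to 3′ on the strand of the gene, since they are the other members that carry a shorter word. They lie at chr1:180246022-180246051 (minus strand, before the second start of Psen2), chr7:30563279-30563308 (minus strand, before the second start of Psenen) and chr3:95893894-95893923 (plus strand, ending just inside the start of Aph1a).
Psen2: agcacaggagacTTCCCACagatgtttatc
Psenen: gcttaggagcgtTGGGAAgtgtagtttctg
Aph1a: aagtattcattggccttccggggGTGGGAA

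The member with the full RBPJ word, Lfng, had an interval of -0.13 to 0.24 around its change. With a shorter word before 1 of their 2 starts, Psen2 had a change of -0.27 and Psenen one of -0.22. Aph1a, with GTGGGAA, had one of -0.17. With no such word, Adam10 had a change of -0.19, Adam17 of -0.13, Ncstn of 0.10 and Rfng of -0.05. Where a gene had 2 probes, the value is that of the brighter one. The words and the changes were not tested against each other.

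Other genes of these steps, listed by name, gave 4 calls among 68 tested, 1 higher and 3 lower (1.04% and 0.84% of all genes). In this fit all 4 were surface proteins that sheddases or gamma-secretase cut, and none was an enzyme or regulator. That depended on the variance model. With the trended and robust prior 17 passed, where 8.61% of all genes did. Among the 17 were the inhibitor Timp1 and the gamma-secretase gene Aph1b (limma adjusted p = 0.046 and 0.0208). E-cadherin, Cdh1, a substrate of ADAM10 and gamma-secretase, read 2.79 and 2.70 in control and 3.43 and 3.40 in Rbpj-deficient cells and rose by 0.67 (SE 0.06, limma adjusted p = 0.0379). N-cadherin, Cdh2, another ADAM10 substrate, read -0.94 and -0.93 in control and -2.00 and -1.81 in Rbpj-deficient cells and fell by 0.97 (SE 0.09, limma adjusted p = 0.0379). These adhesion molecules of the same family thus moved in opposite directions. Trem2, a lipid-sensing receptor of macrophages that ADAM10 and ADAM17 shed, read 5.44 and 5.47 in control and 4.96 and 4.90 in Rbpj-deficient cells and fell by 0.53 (limma adjusted p = 0.0445), where the macrophage marker Fcgr1 also fell by 0.61; the part of macrophages in this was not tested. All 4 calls were lost without any 1 array, at limma adjusted p from 0.12 to 0.174. They were also lost with the replicate number as a block and without a filter on dim probes. The call of Trem2 was lost under quantile normalisation and median scaling as well. Over all 24 cut surface proteins tested the median was -0.06.

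Among 11 tested regulators of ADAM10 and ADAM17 none passed, and 7 had an unadjusted p under 0.05 beside the 24.1% of all genes. Another 3 on the array were too dim to be tested. The median of the 11 was -0.19, beside -0.01 over all genes tested, with 9 of 11 below 0. The member farthest from 0 was Timp1, a secreted inhibitor of metalloproteinases, at -0.88 and -0.60 in control and -1.57 and -1.28 in Rbpj-deficient cells (change -0.68, limma adjusted p = 0.105). Of 7 other ADAM and beta-secretase sheddases tested none passed and 3 had an unadjusted p under 0.05, with a median of -0.20. Another 2 on the array were too dim to be tested. The farthest was Bace2, a relative of the beta-secretase, at -0.97 (limma adjusted p = 0.129), or -0.46 with normexp, which shrinks changes of dim probes.

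Of 6 further gamma-secretase genes and regulators none passed and 2 had an unadjusted p under 0.05, with a median of -0.09. The farthest was Aph1b, which takes the same place in the complex as Aph1a, at 2.23 and 2.22 in control and 1.95 and 1.91 in Rbpj-deficient cells (change -0.29, limma adjusted p = 0.0815), or -0.14 as the mean of its probes. Aph1b has a near-identical copy in the mouse genome, so its value is uncertain. Of 14 enzymes and transporters for Notch O-glycosylation none passed and 1 had an unadjusted p under 0.05. Their median was 0.07, and the farthest from 0 was Eogt, which adds O-linked N-acetylglucosamine to the receptor, at 0.21 (limma adjusted p = 0.195). Of 6 Notch receptors and ligands tested none passed, with a median of 0.12, and 3 others on the array were too dim to be tested. Of the 6, 4 had an unadjusted p under 0.05, beside the 24.1% of all genes. Among those 4 was a very dim gene, well above background on only 2 arrays and so kept through a single genotype. The ligand Jag2 was the farthest, at -0.87 (limma adjusted p = 0.149), or -0.36 with normexp.

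**Figure D3:**
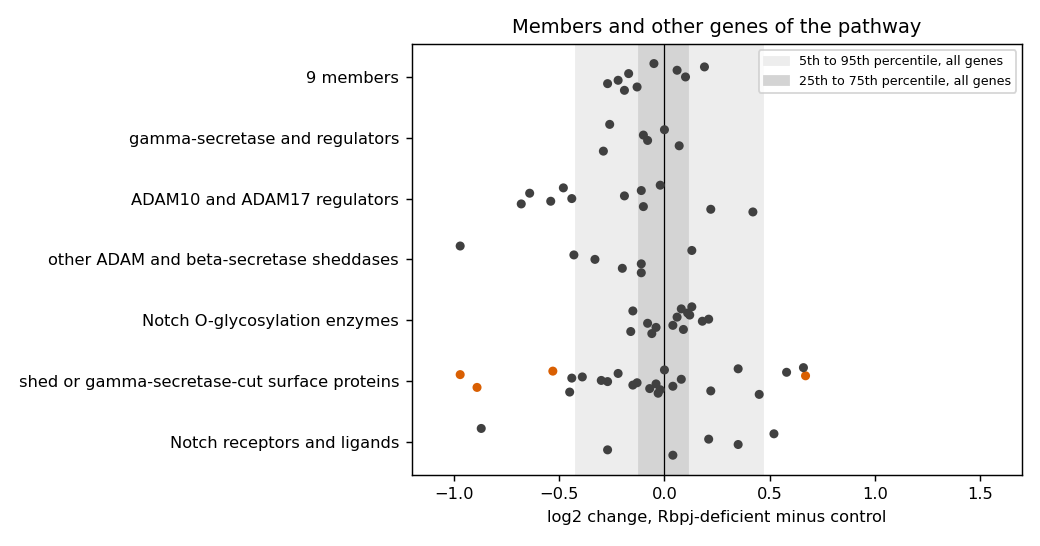
Log2 change (Rbpj-deficient minus control) of the 9 members and of the tested genes of 6 related lists, 1 point a gene, with orange for an adjusted p under 0.05 and grey bands for the 25th to 75th and the 5th to 95th percentiles of all genes tested. The 9 members lie inside the wider band, and the 4 orange points include Cdh1 on the right and Cdh2 and Trem2 on the left.

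The direction of each member's brighter probe, or of the mean of its probes, was the same under all 14 alternatives in processing and arrays. Some of these could not have shown otherwise. The variance prior and the replicate block leave a change as it is, and other filters and kept outlier spots gave the members their main values. The dimmer probes were not an alternative on their own, and that of Adam17 had the other sign (0.06). Mfng had the widest range, from 0.03 to 0.34, its lowest value close to 0. Psen2 ranged from -0.31 to -0.23, Psenen from -0.25 to -0.15, Adam10 from -0.23 to -0.13 and Aph1a from -0.21 to -0.09. Adam17 ranged from -0.19 to -0.03, Ncstn from 0.04 to 0.15, Lfng from 0.01 to 0.10 and Rfng from -0.09 to -0.01. The last 4 also came close to 0 under at least 1 alternative.

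**Figure D4:**
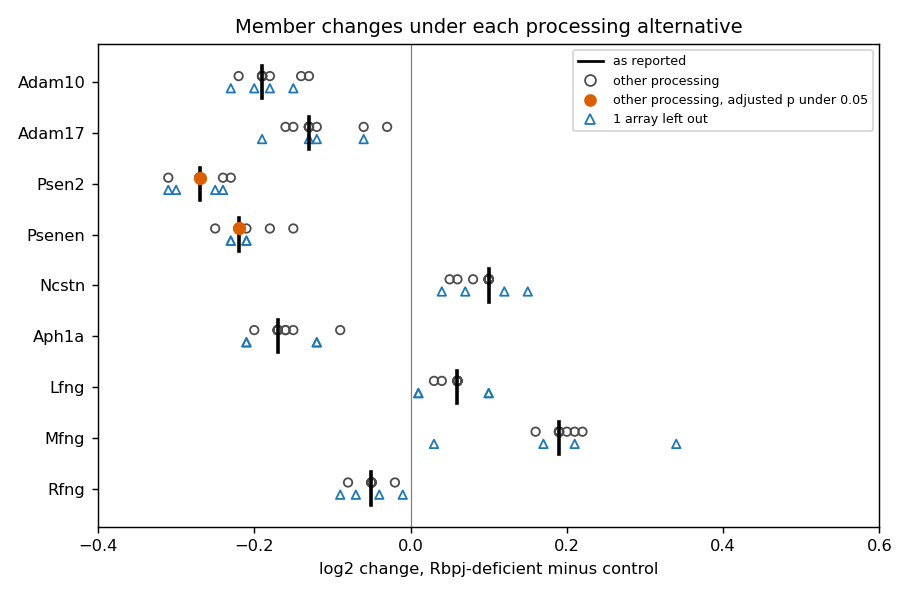
Log2 change (Rbpj-deficient minus control) of each member as reported (black bars), under other processing (circles) and with 1 array left out (blue triangles). Orange circles mark the 2 values with an adjusted p under 0.05, those of Psen2 at -0.27 and Psenen at -0.22, and every point stays on the same side of 0 as its bar.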

How the data were processed

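Cy3-labelled RNA of 4 samples, 150 ng each, was hybridised to one-colour arrays. Spots were quantified as intensity by Agilent Feature Extraction (version 10.7.1.1) with background subtraction and detrending inside each array, per the file headers, and the deposited intensity was not scaled between arrays. The deposited table holds the authors' log2 values, centred on each probe's median, with column medians of 0.0528, -0.0305, -0.0339 and 0.0202; its steps are not given in the sources used here, and it served as an alternative.

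Processed signal was taken to log2 and reduced by the array's 75th percentile over gene spots; outlier spots were left out. A probe was kept if well above background on both arrays of either genotype, the brightest stood for its gene, and these were fitted with limma 3.58.1 in R 4.3.3; a second fit used all 22043 kept probes. Probes were named through RefSeq accessions (GRCm38.p6), 26055 of 39429 with 1 symbol, 0 with several and 13374 with none. Those with none were grouped by their name on the array and counted as genes, so shares of all genes include them. The headers give mm9 for the array annotation. Normexp (offset 50) was run on the median spot and background signals. The procedure was tested on simulated data.

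Members and lists were chosen with earlier results of these data known. All members were named, with Rbpj and, in each pathway list, the genes that passed, up to 3 in each direction, or else the one farthest from 0; 1 gene that passed and 1 marker are counted but not reported here by name. No gene was named for a like pattern, as 4 arrays are too few. Lists were described by counts and medians.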

Additional observations from a re-analysis of the deposited data

How the results depend on the processing

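In limma 338 genes passed, and 894 did so with normexp, 1547 with a trended and robust variance prior and 0 without a filter on dim probes (3654 at an unadjusted p under 0.05). With the replicate number as a block 0 passed (3677 at an unadjusted p under 0.05), and with 1 array left out 0 to 1 (2976 to 3506). Of the members, 0 passed, except with the trended and robust prior, where 2 genes and 2 of their probes did. At an unadjusted p under 0.05 lay 3 members, 4 with that prior, 2 with normexp or the block, 1 with quantile scaling or no filter and 1 to 2 without 1 array. Of the other pathway genes 4 passed, 10 with normexp, 17 with the trended and robust prior, 0 without the filter (23 at an unadjusted p under 0.05), 0 with the block (29) and 0 in each fit without 1 array (20 to 25). The replicate numbers share no stated source, and the difference between replicates correlated across genes at -0.047 between genotypes. Median and quantile scaling moved the median change of all genes to -0.041 and 0.005. Quantile scaling, median scaling, the deposited table, the filter on all 4 arrays, the mean of a gene's probes and outlier spots kept left each of these counts of adjusted calls within 1.5 times. The slide as a block was not run, as all arrays lay on 1 slide. Signal close to background limits Ncstn, Adam17 and the dimmer probe of Rfng.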
